A study of Rattus norvegicus with 22 samples.

Results

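The genes described here act in retinoid and aldehyde metabolism: *Stra6*, *Crabp1*, *Crabp2*, *Aldh1a1*, *Aldh1a2*, *Aldh1a3*, *Aldh3a1*, *Rarb* and *Rarg*. They were found on the array by gene symbol, and all 9 genes were present, with 10 probes among the 30367 probes and 9 symbols among the 19167 symbols measured. Where a gene had more than 1 probe, the brightest over all 22 arrays stood for it. The samples were 11 pairs of tongue tissue from 11 male F344 rats, an inbred strain, labelled 33 weeks of age. All of the rats had been given 4-NQO (4-nitroquinoline-1-oxide, a carcinogen that induces tumors of the oral epithelium) at 20 ppm in drinking water for 10 weeks, and tissue was taken between week 23 and week 26. Each rat gave an OSCC (oral squamous cell carcinoma) and a piece of adjacent, phenotypically normal tongue. The titles of all 22 samples carry the word untreated and the normal pieces are labelled with no treatment, although by the study's methods they were cut from the tongues of these 4-NQO-treated rats, which is the reading used here. No rat without 4-NQO was measured, so the comparison is between tumor and carcinogen-exposed normal tissue. The pieces were whole tissue. In such samples fewer cells of a type and less RNA per cell cannot be told apart.

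Vitamin A circulates as retinol bound to a carrier protein and enters many cells through the membrane receptor STRA6. Inside the cell, retinol is oxidized to retinal and then, by the enzymes ALDH1A1, ALDH1A2 and ALDH1A3, to retinoic acid. CRABP1 and CRABP2 bind retinoic acid in the cytoplasm. CRABP2 hands it to nuclear receptors, whereas CRABP1 has been linked to its breakdown. The retinoic acid receptors, among them RARB and RARG, bind DNA with a retinoid X receptor and switch target genes. Retinoic acid restrains keratinization in squamous epithelium such as that of the tongue. ALDH3A1 is not among these enzymes. It clears reactive aldehydes that arise from lipid peroxidation and is abundant in epithelia exposed to the outside.

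The probes are 60 bases long. The first 2 below read the genes with the largest fall and the largest measured rise, and each maps in rn4 across an intron, so that it reads spliced RNA. The *Crabp1* probe lies at chr8:58320823-58325131, a span of 4309 bases, and the *Aldh1a3* probe at chr1:120847772-120853625, a span of 5854 bases. The third is the dimmer of the 2 *Rarg* probes, at chr7:140997104-140997163, shown because it gave another result than the brighter probe. No base is singled out in capitals.
Crabp1 probe: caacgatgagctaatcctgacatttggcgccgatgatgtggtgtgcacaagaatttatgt
Aldh1a3 probe: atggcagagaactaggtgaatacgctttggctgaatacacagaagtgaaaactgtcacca
Rarg dimmer probe: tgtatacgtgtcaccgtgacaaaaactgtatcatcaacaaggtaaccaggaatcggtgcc

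Retinoic acid receptors bind repeats of a 6-base element. Promoter sequences of RefSeq (build GRCr8, from 250 bases before to 50 bases after a transcript start) were given for 8 of the 9 genes, *Rarg* with 2 of them and *Aldh3a1* with none. They were searched on both strands for AGGTCA, for its form AGTTCA, and for a direct repeat, GNTCA followed by any 6 bases and a further GNTCA, which can overlap a match of the shorter letters. A match was found for *Rarb*, *Rarg* and *Stra6*, and none in these windows for the other 5 genes. Of all 33469 promoters, 16.2% held AGGTCA, 14.5% held AGTTCA and 1.14% held the direct repeat. The *Rarb* window held the direct repeat, with its first base at position 26 after the start, at chr15:11336410-11336439 on the plus strand. The promoter of *Cyp26a1*, the enzyme that breaks down retinoic acid and a textbook target of it, held the direct repeat on the opposite strand at position -92, at chr1:244883723-244883752. The *Stra6* window held AGTTCA at position -132, at chr8:67444613-67444642, and that of *Rarg* AGGTCA on the opposite strand at position -225, at chr7:135269097-135269126 of the minus strand. The matches are given in capitals within 30 bases, each on the strand of its gene. They describe letters, and binding was not measured.
Rarb: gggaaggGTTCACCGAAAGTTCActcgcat
Cyp26a1: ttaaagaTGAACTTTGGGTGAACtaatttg
Stra6: gcaggcaggcgaAGTTCAtcttcttgcagg
Rarg: agcccaggacacTGACCTctgccagctctg

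A level is given as the log2 of the processed signal relative to the 75th percentile of its array, so that 0 is the signal of a fairly bright probe, and levels of different probes are not compared. A difference is the OSCC level minus the normal level of the same rat. The tissues were compared in a paired limma model (terms for the rat and for the tissue). A call required both an adjusted p under 0.05 and a 2-fold or greater change, and 13.8% of all probes met it. All 11 normal pieces were scanned on the first of 2 days, with the OSCC of animals 4 and 9, whereas the other 9 OSCC were scanned on the second day. The normal pieces lay on 3 slides and the OSCC on 4 others. The share of probes well above background was 48.4% to 56.1% in normal tissue and 52.3% to 65.5% in OSCC. The study's text calls the pairs of animals 21, 22 and 24 variable. With scan day as a further term, only the pairs of animals 4 and 9 inform the tissue difference, and limma then called none of the 9 genes and 3 probes in all, 0.0157% of gene symbols, so the mean of these pairs is given beside the results of the 9 genes.

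Of the 9 genes, 6 (66.7%) were called, against 14.7% of all gene symbols on the array. *Aldh1a2*, *Aldh1a3* and *Crabp2* rose, where 7.48% of all symbols rose. *Aldh1a1*, *Aldh3a1* and *Crabp1* fell, where 7.24% of all symbols fell. *Rarb*, *Rarg* and *Stra6* were not called. The median difference of the 9 genes was 0.08 beside -0.21 over all symbols. The called genes split evenly between the directions, and enzymes that make the same product differed in direction. The enzymes that rose, *Aldh1a2* and *Aldh1a3*, were not well above background in any normal piece. After normexp background correction, run with an offset of 50 added to every signal, 0 of the 9 genes were called higher. Such an offset narrows the log2 differences of dim probes. Its part in the calls lost was not tested apart from the correction. The genes were chosen with earlier results of these data known, so the share called carries no test.

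**Figure D1:**
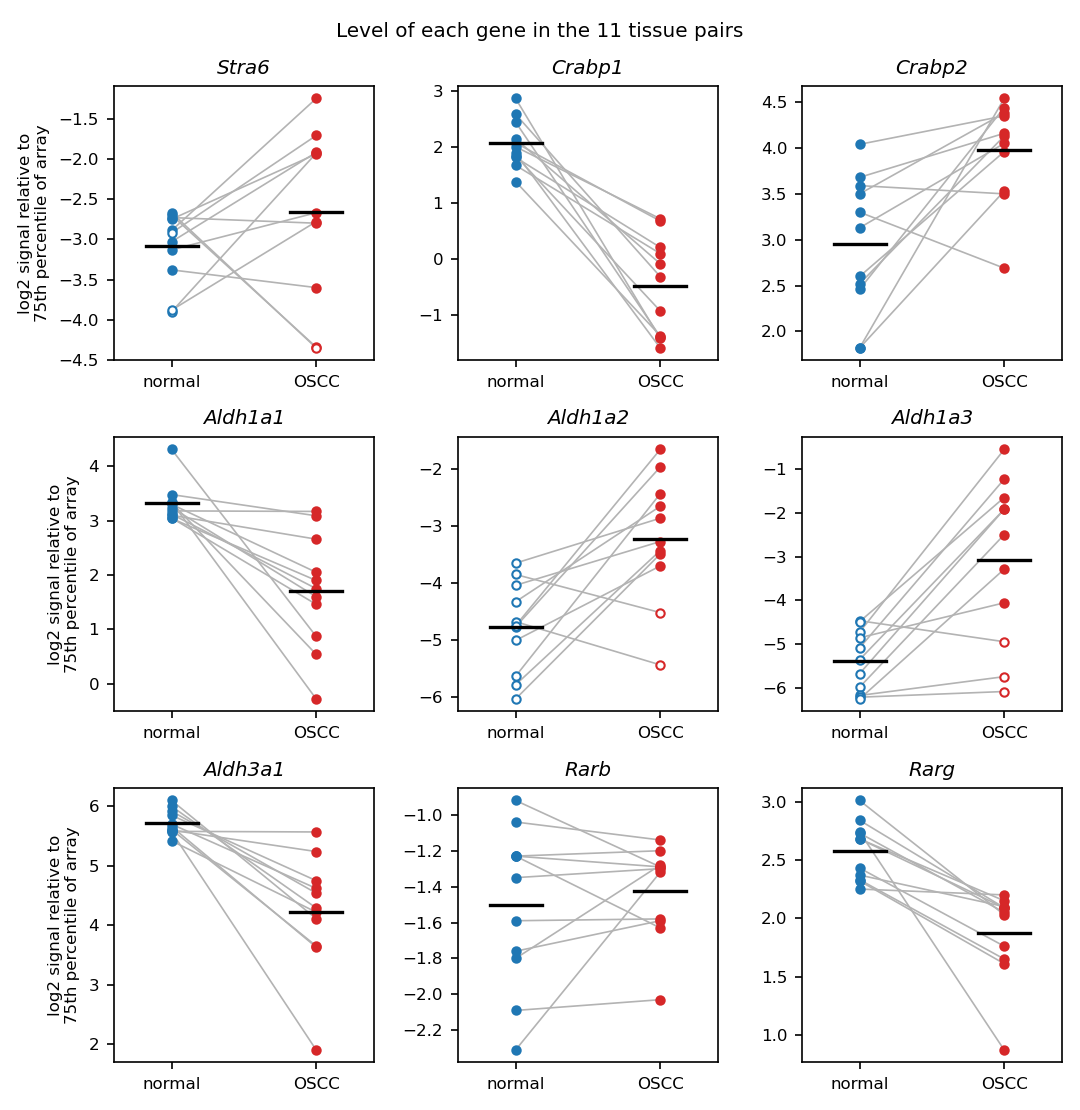
Level of each gene (y axis, log2 signal relative to the 75th percentile of the array) in normal tissue (blue) and OSCC (red) of the 11 rats, with a grey line for each rat and a black bar for the mean. Open circles were not well above background, as for *Aldh1a2* and *Aldh1a3* in all 11 normal pieces, and only *Crabp1* and *Rarg* show tissues whose ranges do not overlap.

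*Stra6*, the retinol receptor and the gene of uptake in this group, was dim. Its level in normal tissue ran from -3.90 to -2.67 with a median of -2.92, and 8 of 11 normal pieces were well above background. In OSCC the level ran from -4.35 to -1.25 with a median of -2.67, and 9 of 11 were well above background. The tumors thus spread to both sides of the normal range, with 6 above its highest value and 2 below its lowest. The SD was 1.05 in OSCC and 0.45 in normal tissue. The mean difference was 0.43 ± 0.34 (SE, n = 11; 95% confidence interval -0.30 to 1.16; limma adjusted p = 0.302), and 7 pairs were higher and 4 lower. The lowest pairs were those of animals 24 (-1.68) and 21 (-1.64), and the highest that of animal 16 (1.98). Without animals 21, 22 and 24 the difference was 1.03, just past 2-fold, and limma called it (adjusted p = 0.00327). The absence of a call thus rested on those pairs. That fit also called more of the whole array, with 9.61% of all symbols higher in place of 7.48%. In the tumors of animals 21 (-4.34) and 24 (-4.35) *Stra6* was not well above background. In animals 4 and 9 the mean was 0.78. The probe lies at chr8:61939430-61939489 in rn4.

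*Crabp1*, the binding protein linked to the breakdown of retinoic acid, showed the largest fall of the 9 genes. Its level in normal tissue ran from 1.38 to 2.86 with a median of 2.0. In OSCC it ran from -1.58 to 0.72 with a median of -0.31. The ranges did not overlap, which held for 2 of the 9 genes (the other was *Rarg*) and for 1.66% of all symbols. *Crabp1* was lower in OSCC in 11 of 11 pairs, each time by at least 2-fold, with single pairs between -4.27 (animal 21) and -1.28 (animal 22). The mean difference was -2.55 ± 0.29 (SE, n = 11; limma adjusted p = 0.000175), a 5.85-fold lower signal with a 95% interval of 3.81 to 9-fold. The probe was printed in 10 spots on each array, which were averaged. The pairs of animals 4 and 9, scanned on 1 day, gave a mean of -2.25, and the other 9 pairs -2.62 ± 1.09 (SD).

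*Crabp2*, which carries retinoic acid to its receptors, moved the other way. Its level in normal tissue ran from 1.82 to 4.04 with a median of 3.13, and in OSCC from 2.69 to 4.54 with a median of 4.13. The ranges overlapped, although 7 tumors lay above the highest normal piece. *Crabp2* was higher in OSCC in 9 of 11 pairs, most in animal 21 (2.72), and lower in those of animals 17 (-0.10) and 24 (-0.61). The mean difference was 1.02 ± 0.27 (SE, n = 11; limma adjusted p = 0.0121), a 2.03-fold higher signal that lay just past the 2-fold threshold. The *Crabp2* call was lost when the pair of animal 11 (0.93), 13 (0.97), 21 (0.85), 22 (0.96) or 25 (0.99) was left out, each of which took it under 2-fold, and without animals 21, 22 and 24 (0.93). It was lost as well when arrays were scaled to their median (0.82, adjusted p = 0.0251), with slide as a random block (1.00, adjusted p = 0.0545) and after normexp background correction (1.06, adjusted p = 0.0522). The pairs of animals 4 and 9 gave a mean of 0.61. The probe lies at chr2:180033998-180034057 in rn4.

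Set side by side within each rat, the difference of *Crabp2* lay above that of *Crabp1* in 11 of 11 pairs, by 1.92 to 6.99 with a median of 3.25. In 9 pairs *Crabp2* was higher and *Crabp1* lower. Animal 21 held both extremes, with the deepest fall of *Crabp1* and the largest rise of *Crabp2*. The lowest pair of *Crabp2* (-0.61) lay above the highest pair of *Crabp1* (-1.28), so the count of 11 would hold however the rats were matched. *Crabp1* was lower in 11 of 11 pairs, so the 9 pairs are those with *Crabp2* higher. These counts add nothing on opposite movement within a rat. They describe genes chosen with their changes known and carry no test.

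**Figure D2:**
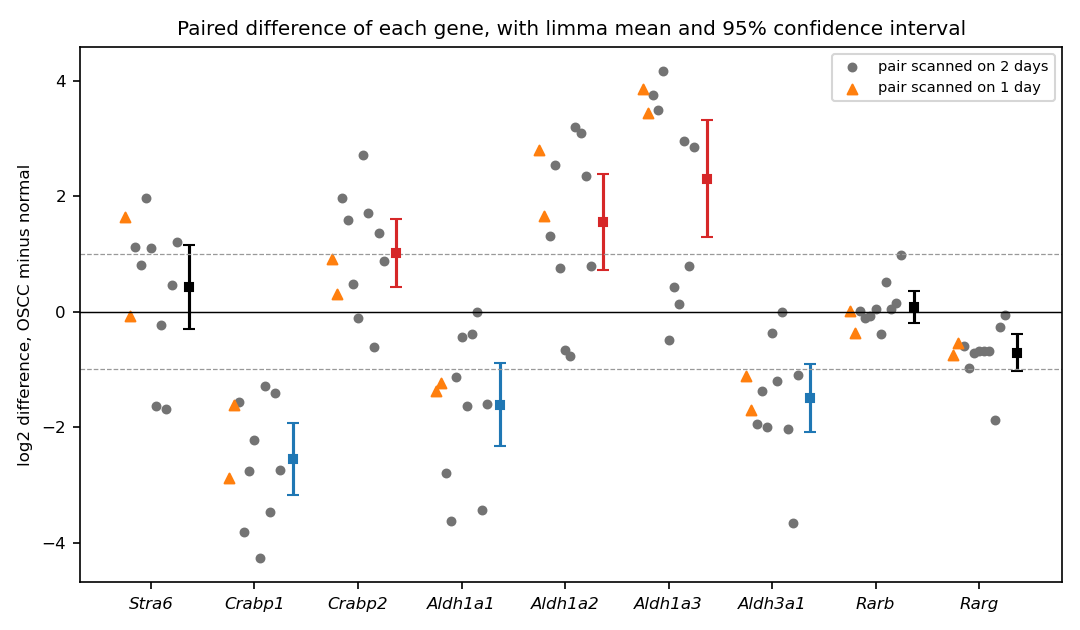
Difference of each gene between OSCC and normal tissue (y axis, log2) in every pair, with triangles for the pairs of animals 4 and 9 scanned on 1 day and circles for the other 9. Squares with bars are the limma mean with its 95% confidence interval, red where called higher and blue where called lower, and dashed lines mark 2-fold. *Crabp1*, *Aldh1a1*, *Aldh3a1* and *Rarg* lay below 0 in all 11 pairs, and the values of *Aldh1a2* and *Aldh1a3* are taken against normal pieces not well above background.

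The enzymes that make retinoic acid differed in direction. *Aldh1a1*, which also oxidizes other aldehydes, was well above background on all 22 arrays. Its level in normal tissue ran from 3.04 to 4.31 with a median of 3.24, and in OSCC from -0.28 to 3.17 with a median of 1.75. In OSCC, 9 tumors lay below the lowest normal value, while those of animals 22 and 24 lay inside the normal range. The SD was 0.36 in normal tissue and 1.06 in OSCC. *Aldh1a1* was lower in 11 of 11 pairs and by at least 2-fold in 8, from -3.62 in animal 13 to -0.01 in animal 24. The mean difference was -1.61 ± 0.33 (SE, n = 11; limma adjusted p = 0.00319), a 3.04-fold lower signal with a 95% interval of 1.84 to 5.02-fold. The pairs of animals 4 and 9 gave a mean of -1.30, and the other 9 pairs -1.67 ± 1.34 (SD). The probe lies at chr1:223773152-223773211 in rn4.

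*Aldh1a2*, the main source of retinoic acid in the embryo, was not well above background in any normal piece and was so in 9 of 11 OSCC. Its measured level ran from -6.04 to -3.65 in normal tissue with a median of -4.75, and from -5.44 to -1.65 in OSCC with a median of -3.27. The tumors of animals 11 (-3.70), 17 (-4.52) and 21 (-5.44) lay within the normal range, and 8 tumors lay above every normal piece. A lower limit took the lowest signal of probes well above background on each normal array, or the gene's own signal where higher. Against it *Aldh1a2* was at least 1.6-fold higher in OSCC (measured means -4.77 and -3.22; limma adjusted p = 0.00839). Tumors in the background kept their measured signal, so the limit holds for this processing only. Over all 11 pairs its signal was higher in 9 and lower in animals 17 and 21, where neither tissue was well above background. In animals 4 and 9 the mean was 2.24 and the other 9 pairs 1.4 ± 1.5 (SD). After normexp background correction with its offset of 50, the difference was 0.48 (limma adjusted p = 0.345), which ended the call. The probe lies at chr8:75771061-75771120 in rn4.

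*Aldh1a3*, the form prominent in epithelia, was well above background in 0 of 11 normal pieces and in 8 of 11 OSCC. The measured level ran from -6.26 to -4.47 in normal tissue with a median of -5.36, and from -6.09 to -0.55 in OSCC with a median of -2.50. OSCC fell into tumors with the gene well above background and those of animals 17, 21 and 22, where it was not, and the SD was 1.89 against 0.71 in normal tissue. With the same kind of limit, *Aldh1a3* was at least 1.76-fold higher in OSCC (measured means -5.39 and -3.08; limma adjusted p = 0.00285). Its signal was higher in 10 of 11 pairs and lower in animal 17, and in 3 pairs neither tissue was well above background. After normexp background correction the difference was 0.70 with an adjusted p of 0.111, so this call was also lost. The pairs of animals 4 and 9 gave a mean of 3.65 and the other 9 pairs 2.01 ± 1.78 (SD).

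Within a rat, *Aldh1a3* was higher in OSCC and well above background there while *Aldh1a1* was lower in 8 of 11 pairs. In the other 3 pairs *Aldh1a3* was not well above background in either tissue. For *Aldh1a2* with *Aldh1a1* the same held in 9 pairs, and in the other 2 *Aldh1a2* was in the background of both tissues. *Aldh1a1* was lower in 11 of 11 pairs, so these counts are the numbers of tumors with *Aldh1a3* or *Aldh1a2* well above background. They add nothing on opposite movement within a rat. As the normal levels of *Aldh1a2* and *Aldh1a3* were in the background, no ratio of these changes was measured.

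*Aldh3a1*, the enzyme that clears aldehydes of lipid peroxidation, had a narrow level in normal tissue, from 5.42 to 6.10 with a median of 5.66 and an SD of 0.21. In OSCC it ran from 1.90 to 5.57 with a median of 4.29 and an SD of 0.97. Of the tumors, 10 of 11 lay below the lowest normal piece, and that of animal 22 (5.57) lay among the normal values. *Aldh3a1* was lower in 11 of 11 pairs and by at least 2-fold in 9, from -3.67 in animal 25 to -0.01 in animal 22. The mean difference was -1.50 ± 0.27 (SE, n = 11; limma adjusted p = 0.00154), a 2.83-fold lower signal with a 95% interval of 1.88 to 4.25-fold. The pairs of animals 4 and 9 gave a mean of -1.41. The probe lies at chr10:47374814-47374873 in rn4.

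*Rarg*, the main retinoic acid receptor of the skin, had 2 probes that disagreed. The brighter, at chr7:140991447-140991506 in rn4, ran from 2.25 to 3.01 in normal tissue with a median of 2.68, and from 0.87 to 2.20 in OSCC with a median of 2.05. All 11 tumors lay below the lowest normal piece. The difference was negative in 11 of 11 pairs with a mean of -0.71 ± 0.15 (SE, n = 11; 95% confidence interval -1.03 to -0.39; limma adjusted p = 0.00304), a 1.63-fold lower signal that was under the 2-fold threshold. The dimmer probe, whose bases are given above and which lies 5.6 kb away, ran from -2.79 to -1.70 in normal tissue and from -3.09 to -1.35 in OSCC. These ranges overlapped almost fully, and the difference was 0.01 ± 0.19 (SE, n = 11; 95% confidence interval -0.41 to 0.43; limma adjusted p = 0.966), with 7 pairs higher and 4 lower. Averaged over both probes the difference was -0.35 (adjusted p = 0.0772), so the lower value of *Rarg* belongs to the brighter probe alone. On that probe the pairs of animals 4 and 9 gave a mean of -0.64.

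*Rarb*, a receptor that retinoic acid itself induces, was read by 1 probe. Its level ran from -2.31 to -0.92 in normal tissue with a median of -1.35, and from -2.03 to -1.14 in OSCC with a median of -1.30. The tumors lay inside the normal range. The mean difference was 0.08 ± 0.13 (SE, n = 11; 95% confidence interval -0.20 to 0.36; limma adjusted p = 0.623), with 7 pairs higher and 4 lower. The sign turned in some settings, to -0.12 with arrays scaled to their median and to -0.18 in the pairs of animals 4 and 9. The array places this probe on unplaced sequence of chromosome 15 (324128 to 324187 in rn4) from a predicted transcript. Of the 10 probes it was the only 1 whose transcript was missing from the RefSeq table used here, and its identity as *Rarb* could not be checked. Its bases may instead match the opposite strand of *Top2b*, the gene next to *Rarb*, which could not be checked without transcript sequences. The value is thus that of the probe, and the level of *Rarb* itself may not have been measured.

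Among rats, the 6 called genes were compared with the direction of their means wherever they were well above background in at least 1 tissue of the pair. *Aldh1a2* and *Aldh1a3* were so in neither tissue of animals 17 and 21, nor *Aldh1a3* in animal 22, and they have no measured direction there. In 9 of the 11 pairs every gene so measured went the direction of its mean. For *Aldh1a2* and *Aldh1a3* this could hardly fail, since they were well above background only in OSCC. *Crabp1*, *Crabp2*, *Aldh1a1* and *Aldh3a1* were well above background in every piece, and alone they gave the same 9 pairs. The exceptions were both *Crabp2*, in animals 17 (-0.10) and 24 (-0.61). In animals 11 and 13 all 6 changed by at least 2-fold. Changes were smallest in animal 17, where of 4 genes measured only *Crabp1* changed by at least 2-fold, and in animal 22 *Aldh1a1* (-0.39) and *Aldh3a1* (-0.01) stayed under it.

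**Figure D3:**
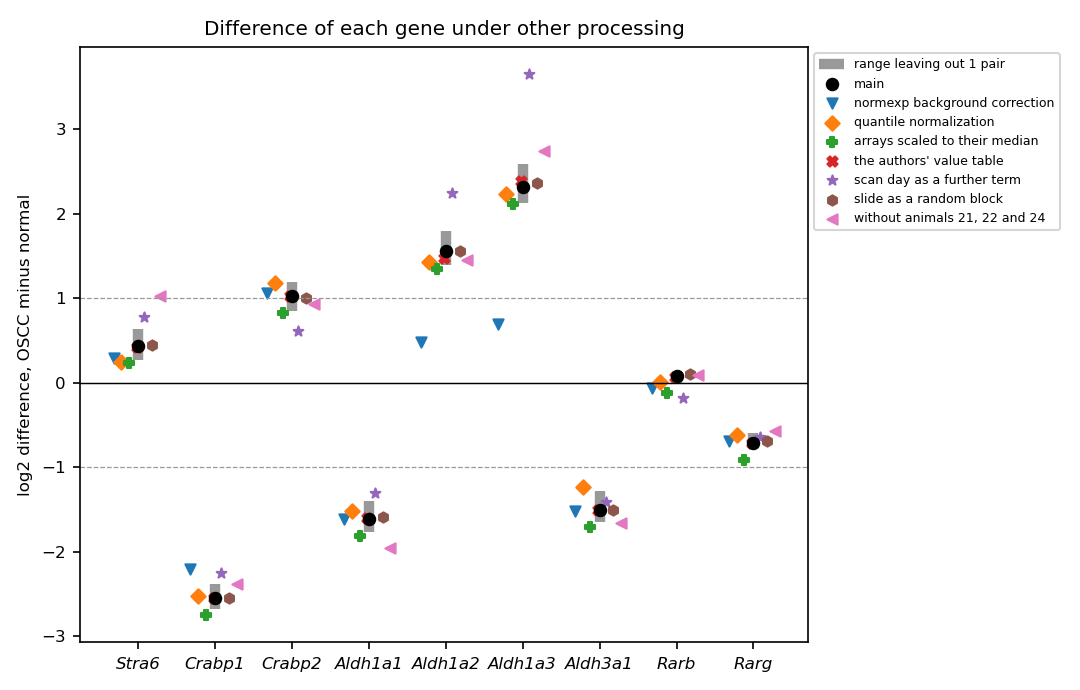
Difference of each gene between OSCC and normal tissue (y axis, log2) as reported (black) and under 7 other ways of processing (colored symbols), with a grey bar for the range over leaving out 1 pair at a time. *Crabp1*, *Aldh1a1* and *Aldh3a1* stayed below -1 in all of those shown, *Aldh1a2* (0.48) and *Aldh1a3* (0.70) dropped below 1 after normexp background correction, and *Crabp2* lay near 1.

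The wider pathways were described by lists of 93 other genes, of which 83 were on the array. Of these, 5 rose (*Rbp2*, *Rdh10*, *Rarres2*, *Aldh1l2* and *Aldh18a1*), 7 fell (*Cd36*, *Adh7*, *Rxrg*, *Aldh1a7*, *Aldh5a1*, *Aox1* and *Aox4*) and 71 were not called. The median difference was -0.17. The shares, 6.02% higher and 8.43% lower, were close to those of all symbols (7.48% and 7.24%). Without animals 21, 22 and 24 the counts were 12 and 15, in a fit that called more of the whole array as well (9.61% of all symbols higher and 14.1% lower).

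Of 12 genes of retinoid uptake, binding and storage, 1 rose and 1 fell. *Rbp2*, which handles retinol in the intestine, ran from 0.69 to 1.92 in normal tissue and from 0.29 to 4.19 in OSCC, and was higher in 10 of 11 pairs by a mean of 1.74 (adjusted p = 0.00334). *Cd36*, a fatty acid transporter, fell by a mean difference of -1.51 (adjusted p = 0.0136; lower in 9 of 11 pairs). *Lrat*, which esterifies retinol for storage, had a difference of 0.97 (adjusted p = 0.0538).

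Of 16 retinol and retinal oxidoreductases, 1 rose and 1 fell. *Rdh10*, which oxidizes retinol to retinal, was well above background in 0 normal pieces and 9 OSCC. It was at least 1.2-fold higher in OSCC (measured means -5.45 and -3.63; limma adjusted p = 0.000256). Its signal was higher in 11 of 11 pairs, which include pairs with neither tissue well above background. After normexp background correction its difference was 0.32 (adjusted p = 0.732). *Adh7*, an alcohol dehydrogenase of the upper digestive epithelium that also oxidizes retinol, fell by a mean difference of -1.32 (adjusted p = 0.0187; lower in 10 of 11 pairs). Its mean was -0.39 in the pairs of animals 4 and 9 and -1.53 in the other 9, and with slide as a random block its adjusted p was 0.0713. *Dhrs3*, which returns retinal to retinol, had a difference of -0.17.

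None of the 3 enzymes that oxidize retinoic acid was called. *Cyp26b1* had a difference of 0.76 (adjusted p = 0.0592), *Cyp26a1*, whose promoter stretch is printed above, was well above background on 1 OSCC array and no normal array, and *Cyp26c1* on none. Of 12 receptors, partners and corepressors, *Rxrg*, a retinoid X receptor abundant in skeletal muscle, fell by a mean difference of -2.11 (adjusted p = 0.00851), with 8 pairs lower and 3 higher. *Rxrb* was lower in 11 of 11 pairs by a mean of -0.93 (adjusted p = 0.000369), short of 2-fold. *Rara* had a difference of 0.30 and *Rxra* of 0.35.

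Of 15 genes known to respond to retinoic acid, *Rarres2*, which encodes the chemoattractant chemerin, rose, and none fell. *Rarres2* was higher in 9 of 11 pairs by a mean of 1.45 (adjusted p = 0.00903). *Btg2*, an antiproliferative gene, was higher in 11 of 11 pairs by 0.96 (adjusted p = 0.000992) and *Rarres1* lower in 11 of 11 by -0.78 (adjusted p = 0.0015), both short of 2-fold.

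Of 13 other aldehyde dehydrogenases, 2 rose and 2 fell. *Aldh1a7*, a rodent paralog of *Aldh1a1* with nearly the same sequence, ran from -0.92 to 0.46 in normal tissue and from -4.49 to -1.20 in OSCC, without overlap, and its mean difference was -2.13 (adjusted p = 0.000515; lower in 11 of 11 pairs). Whether RNA of either paralog bound the probe of the other was not tested. *Aldh1l2*, a mitochondrial enzyme of folate metabolism, was higher by a mean of 2.57 (adjusted p = 0.000239; 10 of 11 pairs), and *Aldh18a1*, of proline synthesis, by 1.64 (adjusted p = 0.000545; 11 of 11 pairs). For *Aldh1l2* only 5 of 11 normal pieces were well above background. After normexp background correction its difference was 1.05 (limma adjusted p = 0.00961). *Aldh5a1*, which clears succinic semialdehyde, fell by a mean difference of -1.31 (adjusted p = 0.00579; 9 of 11 pairs). *Aldh2*, the mitochondrial enzyme that clears acetaldehyde, had a difference of -0.54 (adjusted p = 0.0193), short of 2-fold.

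Of 4 aldehyde oxidases, 2 fell. *Aox4* showed the largest difference of the pathway genes, from levels of 1.74 to 3.31 in normal tissue to levels of -5.00 to 0.96 in OSCC, where 9 of 11 were well above background. Its mean difference was -3.96 (adjusted p = 0.000526; lower in 11 of 11 pairs without overlap). *Aox1* was lower in 10 of 11 pairs by a mean of -1.99 (adjusted p = 0.00235). None of the 12 aldehyde and carbonyl reductases was called, and their differences ran between those of *Cbr4* (-0.75, adjusted p = 0.0135) and *Cbr1* (0.65, adjusted p = 0.284).

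**Figure D4:**
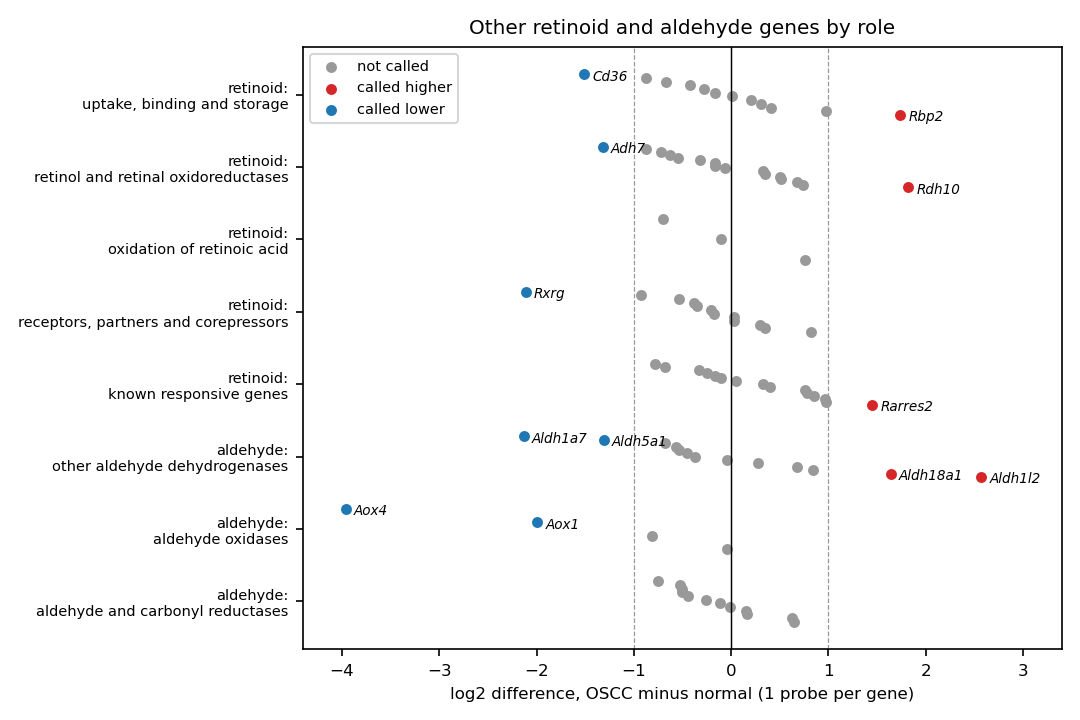
Difference of the 83 other pathway genes between OSCC and normal tissue (x axis, log2, 1 probe for each gene), by list of role (y axis); genes called higher are red, called lower blue and the rest grey, and dashed lines mark 2-fold. A few genes stand in 2 lists, and the called genes lie on both sides of 0, from *Aox4* at -3.96 to *Aldh1l2* at 2.57.

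For each called gene that was itself well above background on at least 11 arrays, which leaves out *Aldh1a2* and *Aldh1a3*, the symbols whose 11 paired differences followed it most closely were sought among 11634 symbols that met the same minimum. The correlations are descriptions over the same 11 pairs, which share arrays, slides and tissue makeup, and they carry no test. Those of *Crabp2* were highest with *Sprr1b* (Pearson r = 0.96), *Cnfn* (0.93) and *Sprr1al* (0.93), which belong to cornified envelope genes, and these were also higher in OSCC, by 2.40, 1.05 and 1.35. *Aldh1a1* was closest to *RGD1563440* (0.98), the DNA repair gene *Mgmt* (0.97) and the selenium binding protein gene *Selenbp1* (0.95), with mean differences of -1.44, -0.99 and -1.87. *Aldh3a1* was closest to *Btbd9*, *Ebpl* and *Clasp1* (0.80 each), and *Crabp1* to *RGD1562200* (0.88), *Ppef2* (0.88) and *Nmu* (0.84). The neighbors of *Aldh3a1* were thus the least alike.

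Markers of other cell types moved between the tissues in the same pairs. Of 10 skeletal muscle genes 6 fell and 1 rose, and their mean level ran from 4.76 to 6.58 in normal tissue and from 1.21 to 7.38 in OSCC. Of 8 gland genes 7 rose and none fell. Their mean level ran from -5.68 to -3.31 in normal tissue and from -3.41 to 7.57 in OSCC. The gland markers *Prb1*, *Bhlha15*, *Aqp5* and *Muc19* were well above background in no normal piece. *Vegp1* was so in 2 normal pieces, *Lipf* in 3, *Vegp2* in 4 and *Amy1a* in 9. Of 8 fibroblast genes 5 rose and none fell (1.84 to 2.54 in normal tissue and 1.59 to 4.61 in OSCC), and so did 5 of 8 macrophage genes (-0.85 to 0.71 and 0.06 to 1.83). Of 6 Schwann cell genes 5 fell and none rose (0.41 to 1.01 and -1.95 to 1.17). Of 6 neutrophil genes 4 rose, of 7 T cell genes 4 and of 4 B and plasma cell genes 2, and none of these fell, whereas none of 7 endothelial and 5 adipocyte genes was called. Of 6 basal squamous genes 1 fell and none rose (4.46 to 5.10 and 2.59 to 4.95), and of 8 suprabasal and cornified genes 2 rose and none fell (0.46 to 4.08 and 0.83 to 4.33). The squamous keratins *Krt5*, *Krt14*, *Krt4* and *Krt13*, which mark tongue epithelium, were well above background on all 22 arrays. The basal keratin *Krt15* was so as well, but fell by a mean difference of -2.54 (limma adjusted p = 7.02e-05; lower in 11 of 11 pairs). Among the suprabasal and cornified genes, *Flg* was well above background in 4 normal pieces and *Ivl* in 6, and *Krt10* in 10 OSCC. The part of tissue makeup in the differences of the 9 genes was not tested.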

How the data were processed

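RNA from 22 tongue pieces had been hybridized to one-color Agilent rat arrays. The authors' software, Feature Extraction 9.5.3.1, had subtracted the background of each spot, and the deposited intensity is linear, without scaling across arrays. A ratio deposited by the authors, of signal to the 75th percentile of each array, served only as an alternative. Here, control spots and 9196 outlier spots (0.975%) were left out, spots of a probe were averaged on the log2 scale, and each array was centred on its 75th percentile. Tissues were compared with limma 3.58.1 (R 4.3.3) with rat as a block, since both tissues came from 1 animal, and Benjamini-Hochberg adjustment covered 30367 probes. Deviations of paired pieces correlated between -0.213 and 0.242 across probes. No probe was removed for low signal. A gene well above background on no array of a tissue has only a lower limit of its fold, set by the dimmest detected probe of each array. Pieces of the other tissue kept their measured signal even in the background, so this limit holds for the processing reported. The number of arrays limits the precision. The genes and lists were chosen with earlier results of these data known. Called pathway genes, and the 3 genes most alike to each called gene, were named by rule. The rule set a minimum of 11 arrays for the genes searched only. The genes most alike to *Aldh1a2* and *Aldh1a3* were left out of the text, as these 2 were themselves detected on fewer than 11 arrays. Positions are those of rn4 in the array annotation, and RefSeq tables of GRCr8 gave promoters. Python 3.11.15 drew the figures. An item of the lists is not reported here.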

Additional observations from a re-analysis of the deposited data

How the results depend on the processing

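*Crabp1*, *Aldh1a1* and *Aldh3a1* kept their direction and their call under every alternative run except scan day as a further term, and no called gene turned its direction. With scan day as a term limma called 0 genes higher and 0 lower, among the 9 as among the pathway genes, and 3 probes in all. With p left unadjusted (under 0.05, and 2-fold), 3 of the 9 genes passed. So did 9578 of all 30367 probes, which is a similar share, so the 3 genes do not stand out. The design leaves 2 pairs within 1 scan day, with 1 residual degree of freedom, so their values were given without a test. The 3 genes called higher became 0 after normexp background correction with its offset of 50, when 1701 probes were called in place of 4201. They became 1 when probes well above background on fewer than 11 arrays were left out. That filter removed *Aldh1a2* and *Aldh1a3* from the test. Leaving out each pair in turn gave 2 to 3 genes higher, 3 to 3 lower, 3649 to 4799 probes, and 5 to 9 pathway genes higher and 7 to 10 lower, both highest without animal 24. Without animals 21, 22 and 24, 6924 probes were called, 12 pathway genes rose and 15 fell, and the 3 genes called higher were *Aldh1a2*, *Aldh1a3* and *Stra6*. Median scaling gave 11 pathway genes lower in place of 7, and 1541 probes higher and 3154 lower in place of 2083 and 2118; the median difference of all probes was -0.24 as reported and -0.44 to -0.03 in other scalings. Without the rat as a block the pairing was ignored, and limma called 4227 probes, with 3 of the 9 genes higher and 3 lower and 5 and 7 pathway genes, so the block changed no call among these genes. The methods' paired t-test called 4002 probes with adjustment and 4248 without it.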
